A study of Mus musculus with 8 samples.

Results

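Diesel exhaust was compared with clean air in the olfactory bulb of male C57BL/6J mice kept in standard cages, in the pools named C-DE (exposed) and C-C (unexposed). The members are 4 of the 8 arrays of the series, chosen by their titles: 2 arrays of C-DE and 2 of C-C. The remaining 4 arrays hold mice that were reared with environmental enrichment, breathing clean air (EE-C) or diesel exhaust (EE-DE), and their values are set beside some of the results. The C-DE mice breathed exhaust at 90 µg/m3 on 28 days, 8 h each day, starting on postnatal day 28 and ending on day 55, and bulbs were taken from mice aged 56 days. The labels name no transgene and no further treatment for either group. Each group was a single pool of RNA, holding 7 C-C or 7 C-DE mice (8 and 9 mice in the enriched pools), divided over 2 one-colour Agilent arrays that are technical duplicates. The duplicates carry no variation between mice, so no test of the exposure exists and no p-value is given. Of the 34797 gene names on the array, 24581 could be compared, those with a probe well above background and without an outlier flag on all 4 arrays.

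The olfactory bulb is the first relay of smell in the brain. It receives the axons of olfactory sensory neurons, whose cell bodies lie in the olfactory mucosa of the nose beside supporting cells and glands, and it passes the signal on through mitral and tufted cells under the control of GABA and dopamine interneurons. Inhaled particles can settle on that mucosa, and exhaust contains aryl hydrocarbons, which in many tissues induce detoxifying enzymes through the aryl hydrocarbon receptor and antioxidant genes through Nrf2. The bulb itself is dissected from a bony cup whose floor is pierced by the olfactory nerves, with meninges, vessels and marrow close by.

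A log2 level below is the log2 of an array's signal minus the 75th percentile of that array's noncontrol spots, and a log2 fold change is the mean of the 2 C-DE arrays minus the mean of the 2 C-C arrays. Its range over the 4 pairings of a C-DE array with a C-C array is the error given, and the number of arrays limits its precision. A level describes the signal of a probe and is not read as the abundance of one gene against another. Rose and fell are used for a gene at least 1.5-fold apart (0.585 on the log2 scale) and are not statements of a test. The duplicates correlated at Pearson's r = 0.9974 for C-C and 0.9977 for C-DE across genes, which are not independent replicates, and no spot was saturated. The bulb's own markers were bright: tyrosine hydroxylase (Th), which makes dopamine in periglomerular neurons, had log2 levels of 5.49 and 5.46 on the C-C arrays and 5.44 and 5.51 on the C-DE arrays.

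The 2 arrays of a pool were not alike for genes of the olfactory mucosa, although they held the same RNA. The median member of the supporting cell list read 0.77 higher (log2) on C-C array 1 than on C-C array 2, and -0.31 on C-DE array 1 relative to C-DE array 2. For the olfactory sensory neuron list these values were 0.29 and -0.20. Across all genes, the SD of array 1 minus array 2 was 0.227 for C-C and 0.213 for C-DE, and 603 and 605 genes had duplicates at least 1.5-fold apart.

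In the whole comparison, 123 genes rose and 241 fell, 0.500% and 0.980% of those compared. The median log2 fold change of all genes was -0.01, and 84.8% of genes lay within 0.2 of 0. Among the 364 genes past 1.5-fold, 179 had a duplicate pair that was itself at least 1.5-fold apart. At least 1.5-fold in the same direction in each of the 4 pairings were 13 genes that rose (0.0529%) and 47 that fell (0.191%). Dim genes supplied most of the calls. Among the 1225 genes with a mean log2 level of -5 or less, 5.06% were past 1.5-fold, and among the 2521 between -5 and -4 the share was 6.11%. It was 0.219% of the 10941 genes above 0, where 5 rose and 19 fell. The SD between duplicates ran the same way, from 0.289 in the dimmest class to 0.073 in the brightest.

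**Figure D1:**
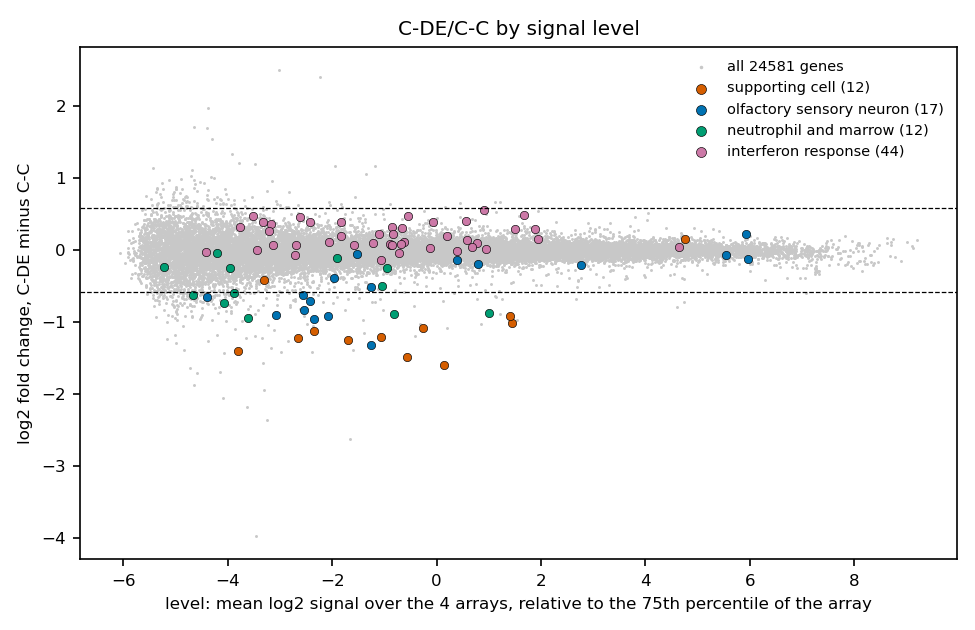
Log2 fold change of C-DE over C-C (vertical axis) against the mean log2 level over the 4 arrays (horizontal axis) for 24581 genes, with 4 gene lists coloured and dashed lines at 1.5-fold. Supporting cell genes lie below the lower line at all brightnesses but for 2 of 12, while the 44 interferon response genes lie inside the lines.

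Supporting cells are the glia-like epithelial cells of the olfactory mucosa, rich in enzymes that break down odorants and inhaled chemicals. Of the 14 genes of their list on the array, 12 could be compared, 10 fell and none rose, against 0.980% of all genes that fell. The median log2 level of the 12 was 0.27 and -0.57 on the C-C arrays and -1.79 and -1.20 on the C-DE arrays, and the median log2 fold change was -1.16 (-1.79 to -0.57 over the pairings). Among the 12, 11 were lower in each pairing, against 22.4% of all genes. The remaining gene, Ermn, which oligodendrocytes also make, was 0.15 higher with pairings on both sides of 0. Without C-C array 1 the median was -0.73 and without C-C array 2 it was -1.61. Of the 2 genes that could not be compared, the cytochrome P450 Cyp1a2 was well above background on a single array and the sulfotransferase Sult1c1 on none.

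Cyp2g1, a cytochrome P450 found almost entirely in olfactory mucosa, fell the most in the list. Its log2 level was 1.44 and 0.44 on the C-C arrays and -0.86 and -0.44 on the C-DE arrays, a log2 fold change of -1.59 (-2.29 to -0.88). Both C-DE arrays lay below both C-C arrays. Sec14l3, a lipid transfer protein, stood at 0.54 and -0.19 in C-C and at -1.68 and -0.93 in C-DE, a change of -1.48 (-2.22 to -0.75). Its second, dimmer probe gave -0.62. Keratin 18 (Krt18), an intermediate filament of simple epithelia, read -0.71 and -1.44 in C-C and -2.50 and -2.16 in C-DE, a change of -1.25. Its partner keratin 8 (Krt8) changed by -1.40. The water and glycerol channel Aqp3 changed by -1.21, Ugt2a1, which conjugates odorants with glucuronic acid, by -1.20, and the mesothelin-like gene Mslnl by -1.12. Cyp2f2, which activates naphthalene, changed by -1.08, Cyp2a4 by -1.01 and the carbonyl reductase Cbr2 by -0.91. In none of these 10 genes did the arrays of C-C and C-DE overlap. Of all genes, 22.4% were lower in C-DE without overlap. Sult1d1, at -0.41, was lower in each pairing and did not pass 1.5-fold.

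Olfactory sensory neurons detect odorants through receptors on their cilia, where the G protein Gnal, adenylyl cyclase 3 and a cyclic nucleotide-gated channel turn binding into a current. Their cell bodies are in the nose and only their axons reach the bulb. All 17 genes of the list could be compared, and 8 fell and none rose, against 0.980% of all genes that fell. The median was -0.51 (-0.66 to -0.20), and it was -0.27 without C-C array 1. The probes with the strongest signals changed little. The olfactory marker protein Omp, at 6.15 and 5.92 in C-C and 5.81 and 6.01 in C-DE, overlapped between the pools. The G protein subunit Gng13 changed by -0.07, Adcy3 by -0.06 and Gnal by -0.20. The calcium-binding protein S100a5 was the only member above 0, at 0.23 (0.01 to 0.46).

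All 8 genes that fell had signals below the 75th percentile of the array. The channel subunits Cnga4, at -1.58 and -2.15 in C-C and -2.97 and -2.66 in C-DE, and Cngb1 changed by -0.95 and -0.91, and the main subunit Cnga2 by -0.51. The brightest Cngb1 probe carries that value, while the gene's other probes gave -0.13 and 0.17. The olfactory chloride channel Ano2 changed by -0.90, and Gfy (named Gm581 in the files), which is needed for the cyclase to enter the cilium, by -0.82, with -0.28 at its dimmer probe. The transcription factor Ebf2 changed by -0.71, the receptor transporter Rtp1 by -0.65 and the adhesion molecule Kirrel2 by -0.62. Rtp1 is the exception in stability: C-DE array 2 read -4.35 and lay between its C-C arrays at -3.70 and -4.46.

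Umodl1, a protein of olfactory and vomeronasal neurons related to uromodulin, fell the most in the list. Its log2 level was -0.20 and -1.01 in C-C and -2.08 and -1.76 in C-DE, a change of -1.31 (-1.88 to -0.75), and the pools did not overlap. The 250 bases upstream of its start hold the letters of the site of EBF factors, which are known for driving genes of olfactory neurons. The sequence is shown for that site, marked by capitals, from RefSeq on GRCm38.p6, chr17:30954433-30954682, plus strand.

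Umodl1: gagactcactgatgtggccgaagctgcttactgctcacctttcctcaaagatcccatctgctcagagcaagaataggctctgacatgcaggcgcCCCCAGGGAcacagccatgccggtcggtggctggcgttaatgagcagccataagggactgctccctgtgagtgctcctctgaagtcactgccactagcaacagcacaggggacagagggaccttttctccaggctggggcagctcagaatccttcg

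CCCNNGGGA, searched on both strands, was present in 4 of the 13 promoters found for the list (Cnga2, Gng13, Umodl1 and Gfy), 30.8%, and in 5.53% of the 27025 promoters in the table. The 4 genes include Gng13, which did not pass 1.5-fold. Of the genes that fell, 113 had an entry, and 7.96% of their promoters held the letters.

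Odorant receptors are the largest gene family of the mouse, each neuron using a single member. Their transcripts were near the limit of the array: of 1089 receptor genes, 742 were well above background on none of the 4 arrays and 189 could be compared. Among these, 5 rose and 8 fell, 6.88% in all, and of genes of any kind with a mean level between -5 and -4, the class of the receptors' own median on each array, 6.11% passed 1.5-fold. For this call by the mean, the receptors' share is near that of other dim genes. The median was -0.06 (-0.14 to 0.08). The brightest were Olfr544, at 1.76 and 1.73 in C-C and 1.91 and 1.95 in C-DE, and Olfr173, at 1.32 and 1.22 in C-C and 0.55 and 1.06 in C-DE. Olfr544 changed by 0.19 and Olfr173 by -0.47, both without overlap of the pools. Lower at least 1.5-fold in each pairing were Olfr324 (-1.24), Olfr541 (-0.94), Olfr441 (-0.88), Olfr536 (-0.87), Olfr577 (-0.85) and Olfr1180 (-0.78), with mean levels over the 4 arrays from -5.17 to -3.48. This stricter call was met by 0.191% of all genes. It was met by 13 of the 2521 genes with a mean level between -5 and -4 and by 17 of the 5014 between -4 and -2. The receptors' share was above these. Of the 257 vomeronasal receptor genes, which detect pheromones, 52 could be compared and 3.85% passed 1.5-fold, against 1.48% of all genes and the 6.11% of genes with a mean level between -5 and -4. Vmn1r227 gave 0.82 with overlap of the pools (-0.07 to 1.72) and Vmn1r124 gave -0.69. The brightest, Vmn1r65, stood at 1.33 and 1.07 in C-C and 0.60 and 0.70 in C-DE, a change of -0.55.

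Nasal glands secrete mucus and odorant-carrying proteins. Of 19 genes of their list on the array, 7 were well above background on none of the 4 arrays, among them the lipocalins Lcn3, Lcn4, Lcn11, Lcn13 and Lcn14. Both Obp2a and Lcn13 of the list were matched to Lcn13 of the files. Of the 10 that could be compared, 5 fell and Bpifb9b rose, against 0.980% and 0.500% of all genes. The median of -0.62 spanned -1.14 to 0.05 over the pairings and was 0.03 without C-C array 1, and a single array decided several of these values. Bpifb9b, a secreted lipid-binding protein, stood at -4.92 and -3.60 in C-C and at -0.32 and -3.20 in C-DE, so that its log2 fold change of 2.50 (0.40 to 4.60) rests largely on C-DE array 1. Bpifa6, of the same family, read -1.44 and -0.20 in C-C and -0.64 and -3.31 in C-DE, and BC048679 read -2.30 and -1.38 against -1.55 and -4.24. Their changes of -1.15 and -1.05 rest on C-DE array 2. Bpifb4, at -0.82, also overlapped between the pools. The gland genes that fell without overlap were Bpifb3, at 1.32 and 0.17 in C-C and -0.51 and -0.16 in C-DE (-1.08), and the secretoglobin Scgb1c1, at 2.06 and 0.67 against 0.09 and 0.58 (-1.03).

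**Figure D2:**
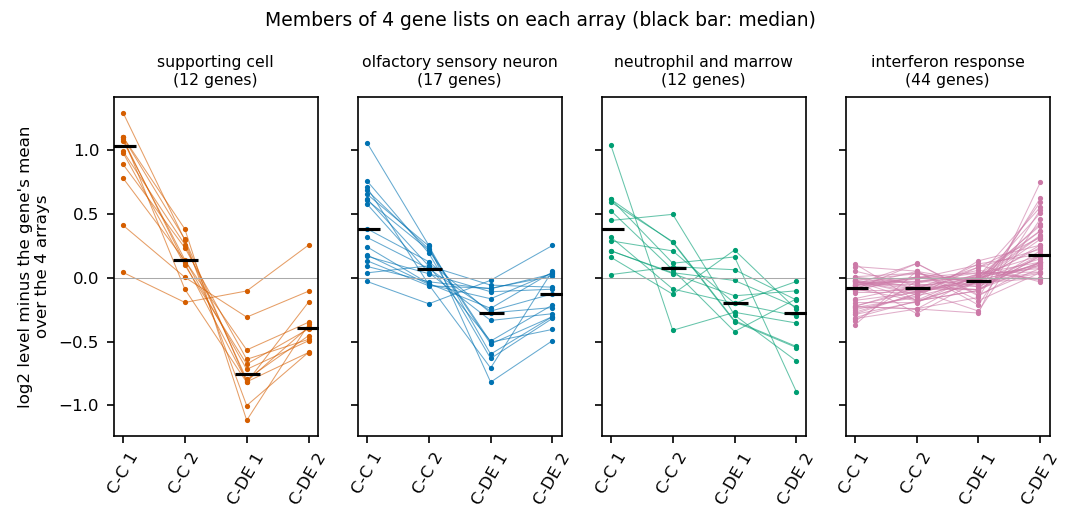
Each line is a gene of the list named above the panel, drawn as its log2 level on each of the 4 arrays minus its own mean over them, with black bars at the median. The median of the supporting cell genes is highest on C-C array 1 and lowest on C-DE array 1, and that of the interferon response genes is highest on C-DE array 2.

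Neutrophils and their marrow precursors carry granule proteins. Of 16 genes of their list, 12 could be compared, and all 12 were below 0, while 46.9% of all genes were above 0. Of the 12, 6 fell, against 0.980% of all genes and 70 of the 5014 genes with a mean level between -4 and -2. The median was -0.54 (-0.64 to -0.14), and -0.26 without C-C array 1. S100a9, which with S100a8 forms calprotectin, stood at 1.59 and 1.28 in C-C and 0.66 and 0.46 in C-DE, a change of -0.88 (-1.13 to -0.62). S100a8, at -0.19 and -0.53 in C-C and -1.15 and -1.35 in C-DE, changed by -0.89, and lactoferrin (Ltf) by -0.95. These 3 genes fell at least 1.5-fold in each pairing, against 0.191% of all genes. The granule protein Ngp (-0.73), Retnlg (-0.63) and myeloperoxidase (Mpo, -0.59) also fell, with Ngp and Retnlg overlapping between the pools. In a bulk sample, fewer cells of a type and less RNA per cell cannot be told apart, here and for every list. Hemoglobin genes lay between -0.25 and -0.20, and Ahsp, which stabilizes alpha hemoglobin, fell by 0.80 on the log2 scale as the only red cell gene of 7 past 1.5-fold. In the bone list, 12 genes gave a median of -0.05, and osteocalcin (Bglap, -0.62), Bglap2 (-0.67) and Ibsp (-0.61) fell, against 0.980% of all genes. Bglap2 stood at 1.56 and 0.66 in C-C and at -0.23 and 1.11 in C-DE, and both osteocalcin genes overlapped between the pools.

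The medians of the supporting cell, sensory neuron, gland and neutrophil lists were thus all below 0 in the same pool, and the part of neighbouring tissue in these values was not tested. The 9 sensory neuron genes that did not pass 1.5-fold lay between -0.51 and 0.23. The motile cilia list, of respiratory and ependymal cells, had a median of -0.06 with none of 11 genes past 1.5-fold, the meninges list -0.02 with none of 11, and the choroid plexus list -0.35 with none of 4. Over all genes, 1.48% passed 1.5-fold.

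In the mice reared with enrichment, the same lists ran in part the other way. The EE-DE/EE-C median was 0.72 (-0.21 to 1.75) for supporting cells, 0.22 (0.03 to 0.41) for olfactory sensory neurons, -0.05 (-1.01 to 0.41) for nasal glands and -0.29 (-1.20 to 0.62) for neutrophils and marrow. Of the 47 genes lower at least 1.5-fold in each C-DE/C-C pairing, 27 were above background on all 4 enriched arrays, and 10 of these were lower and 3 higher in every EE-DE/EE-C pairing. The shares over all 21678 genes measured there were 19.9% lower and 14.4% higher. EE-DE array 1 stood apart from the other enriched arrays, with 56.7% of spots well above background and a median background of 29.0 against 21.0. The comparisons have no array in common, and the difference between them was not tested.

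Interferon response genes are the antiviral genes that cells switch on through interferon-stimulated response elements in their promoters. Of 45 genes on the array, 44 could be compared, 39 were above 0, against 46.9% of all genes, and none passed 1.5-fold by its brightest probe, against 0.500% that rose. The median was 0.15 (0.06 to 0.30), and 22 genes were higher and 2 lower in each pairing, against 18.7% and 22.4% of all genes. The increase was unequal on the C-DE duplicates, with a median of 0.25 without C-DE array 1 and of 0.08 without C-DE array 2. Ifit3, an antiviral RNA-binding protein, stood at 0.58 and 0.66 in C-C and at 0.91 and 1.45 in C-DE, a change of 0.57 (0.26 to 0.87). Isg15, a ubiquitin-like modifier, read 1.36 and 1.49 in C-C and 1.57 and 2.27 in C-DE, a change of 0.49 (0.08 to 0.91), and its dimmer probe changed by 0.69 (0.20 to 1.18), past 1.5-fold. In both genes the C-DE arrays were above the C-C arrays, and C-DE array 2 was the highest. Oasl2, Ifi44, Oasl1 and Rtp4 lay between 0.41 and 0.48. Zbp1, a sensor of viral nucleic acid, was steadier between duplicates, at -3.56 and -3.48 in C-C and -3.19 and -3.07 in C-DE (0.39), and the membrane protein Ifitm3 stood at 1.32 and 1.38 against 1.61 and 1.68 (0.29). The brightest members, Oas1b and Lgals3bp, changed by 0.04 and 0.16. The members below 0 lay between -0.14 and -0.01, with Iigp1, an interferon-inducible GTPase, the lowest. The EE-DE/EE-C median was 0.10 (-0.05 to 0.29).

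Among the 31 chemokine and inflammation genes on the array, 23 could be compared, with a median of 0.01. Only Cxcl10 passed 1.5-fold, 4.35% of the list against 0.500% of all genes that rose. Cxcl10 attracts T cells and is itself induced by interferon. It stood at -1.85 and -2.01 in C-C and at -1.53 and -0.84 in C-DE, a change of 0.74 (0.31 to 1.17), and its value was 0.39 without C-DE array 2 and 1.09 without C-DE array 1. The monocyte chemokine Ccl12 followed, at 0.52 (0.04 to 1.00), with C-DE array 2 apart from the other 3 arrays. Ccl3, at -3.65 and -3.77 in C-C and -3.39 and -3.35 in C-DE, changed by 0.34 with little distance between duplicates. Il6, Tnf and Cxcl1 were above background on a single array each and Il1a, Cxcl2 and Sele on none, and Il1b changed by -0.06 at a log2 level of -5.78.

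The promoters of Ifit3, Isg15 and Cxcl10 are shown because they hold the response element's letters, GAAANNGAA on either strand, in capitals (250 bases upstream of the start, RefSeq, GRCm38.p6). They lie at chr19:34583279-34583528 on the plus strand, chr4:156200819-156201068 on the minus strand and chr5:92348890-92349139 on the minus strand.

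Ifit3: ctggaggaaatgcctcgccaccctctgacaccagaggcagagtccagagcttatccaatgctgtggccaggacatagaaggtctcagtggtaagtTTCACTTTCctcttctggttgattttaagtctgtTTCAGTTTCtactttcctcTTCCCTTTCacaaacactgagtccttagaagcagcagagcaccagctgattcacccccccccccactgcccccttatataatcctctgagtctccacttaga
Isg15: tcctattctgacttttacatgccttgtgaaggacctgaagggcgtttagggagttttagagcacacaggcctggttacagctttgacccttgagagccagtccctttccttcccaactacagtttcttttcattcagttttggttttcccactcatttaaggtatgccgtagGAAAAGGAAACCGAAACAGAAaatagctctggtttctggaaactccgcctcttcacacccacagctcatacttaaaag
Cxcl10: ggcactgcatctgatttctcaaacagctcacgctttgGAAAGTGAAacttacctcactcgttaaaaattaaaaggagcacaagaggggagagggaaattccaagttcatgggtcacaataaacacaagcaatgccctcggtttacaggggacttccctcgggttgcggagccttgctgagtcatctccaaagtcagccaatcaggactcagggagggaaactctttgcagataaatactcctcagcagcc

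Ifit3 and Isg15 hold 3 matches each, overlapping in Isg15, and Cxcl10 holds 1. The letters were present in 14 of the 33 promoters found for the interferon list (42.4%), in 28.0% of those of the chemokine list and in 7.16% of all promoters in the table. Among the genes that rose, 3 of 45 promoters (6.67%) held them.

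The aryl hydrocarbon receptor, which binds aromatic compounds of exhaust, induces Cyp1a1 and its relatives. Cyp1a1 was above background on 1 of the 4 arrays. The 5 targets that could be compared had a median of -0.01 and none passed 1.5-fold, against 1.48% of all genes. Cyp1b1, at 0.36 and 0.36 in C-C and 0.42 and 0.29 in C-DE, and Tiparp, at 1.86 and 1.89 against 1.90 and 1.75, overlapped between the pools. The largest changes were 0.28 for Aldh3a1, with overlap and a second probe at -0.12, and -0.28 for the receptor's repressor Ahrr. The core of the response element, GCGTG, was present in 4 of the 7 promoters found for the list (57.1%), in 28.2% of all promoters in the table and in 41.1% of those of the genes compared. Its share was higher in the Nrf2 list that follows, 15 of 23 promoters (65.2%), so the letters are not particular to these targets.

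Nrf2 is the main switch of antioxidant genes. All 27 genes of its list lay within 1.5-fold, with a median of -0.02. Of all genes with a mean level above 0, the class of the list's median level, 0.219% passed 1.5-fold. Nqo1, at -0.95 and -1.05 in C-C and -0.74 and -0.89 in C-DE, changed by 0.18, and heme oxygenase (Hmox1), at -0.51 and -0.54 against -0.42 and -0.46, by 0.09. Both were higher in each pairing by less than 1.5-fold. Catalase (Cat) had the largest change, 0.32 (0.26 to 0.38), from 1.54 and 1.51 in C-C to 1.88 and 1.79 in C-DE, with 0.04 at its dimmer probe. The metallothionein Mt1 and ferritin (Fth1), the brightest, changed by -0.03 and 0.02. Of 87 genes of xenobiotic metabolism compared, out of 169 on the array, none rose and 6 fell, 6.90% against 0.980% of all genes that fell. Besides Cyp2g1, Ugt2a1, Cyp2f2 and Cyp2a4 these were Cyp27b1, which activates vitamin D (-0.87), and the estrogen sulfotransferase Sult1e1 (-0.61). The brightest of that list, Gstp2 and Cyp2u1, changed by 0.06 and -0.01.

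Immediate early genes mark recent activity of neurons. Of the 20 in the list, 16 were above 0, against 46.9% of all genes, and none passed 1.5-fold, against 1.48%. In each pairing 4 of them were above 0, a share near the 18.7% of all genes. Their median was 0.13 (-0.02 to 0.22). The duplicates were far apart here as well: Npas4 read 2.49 and 1.78 in C-C and 1.98 and 2.72 in C-DE. Genes of the clock lay close to 0, with medians of 0.02 for the 10 genes in phase with Dbp and 0.02 for the 5 in antiphase, and Dbp itself read 4.01 and 4.03 in C-C and 4.01 and 4.05 in C-DE. The other probe of Dbp, which was among the genes of the RT-PCR, changed by 0.18 (0.13 to 0.23), from 3.73 and 3.70 in C-C to 3.93 and 3.86 in C-DE. The glucocorticoid response list (11 genes, median -0.02) and the heat shock list (12 genes, 0.01) had no member past 1.5-fold. The share was 0.219% of all genes with a mean level above 0, the class of both lists' median levels.

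None of the genes marking the cell types of the bulb itself passed 1.5-fold. Few genes of that brightness did: the share was 0.219% of all genes with a mean level above 0, the class of each list's median level. The medians were 0.04 for mitral and tufted cells (10 genes), -0.00 for dopaminergic periglomerular cells (5), 0.00 for GABA interneurons (17), -0.06 for neuroblasts and proliferation (8) and -0.01 for astrocytes (10). They were -0.05 for oligodendrocytes (11), -0.01 for olfactory ensheathing cells (7), -0.04 for microglia (16) and 0.02 for endothelium (14). The vesicular GABA transporter Slc32a1 read 7.06 and 7.06 in C-C and 7.04 and 6.996 in C-DE, and Cdhr1 of mitral cells 4.66 and 4.72 against 4.72 and 4.74. The integrin Itgam of microglia and other myeloid cells had the largest change of its list, -0.32 (-0.44 to -0.20), from 5.44 and 5.25 in C-C to 5.00 and 5.04 in C-DE, while its dimmer probes both changed by -0.03 with overlap of the pools. The vascular growth factor receptor Kdr changed by 0.20, and the proliferation genes Ube2c and Mki67 by -0.28 and -0.23. All 8 genes of the neuroblast list were below 0, with 2 lower in each pairing, a share near the 22.4% of all genes, and a dimmer probe of Ube2c was higher by 0.11 (0.08 to 0.15).

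**Figure D3:**
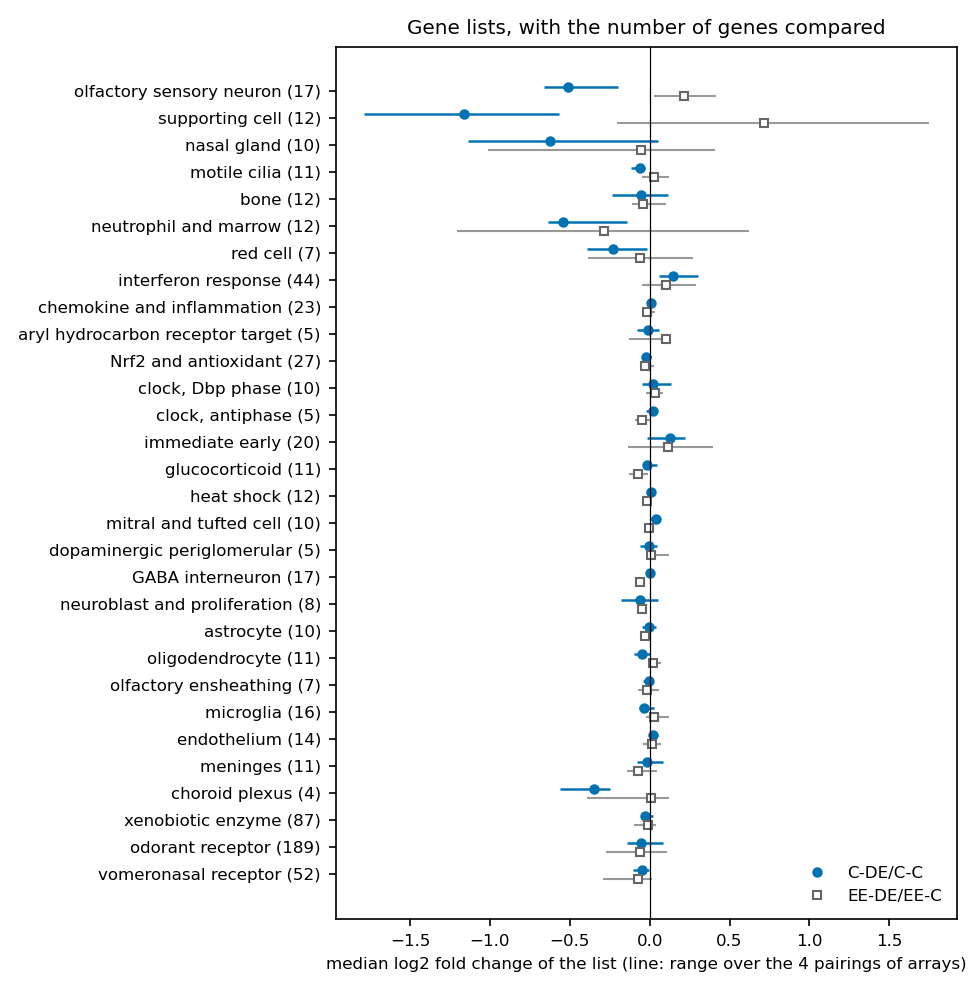
Median log2 fold change of 30 gene lists (horizontal axis) in C-DE/C-C (blue circles) and EE-DE/EE-C (grey squares), with lines from the lowest to the highest of the medians in the 4 pairings, outside which a median of the means can lie. Supporting cells (-1.16), nasal glands (-0.62), neutrophils and marrow (-0.54) and olfactory sensory neurons (-0.51) stand to the left in C-DE/C-C, while the lists of bulb neurons and glia lie near 0.

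Among single genes with a symbol that were lower at least 1.5-fold in each pairing, 30 in all, several belong to none of the cell type and pathway lists. Pom121l2, related to a nuclear pore protein, fell from -1.96 and -3.12 in C-C to -4.03 and -4.20 in C-DE (-1.57). Muc16, a membrane mucin of surface epithelia, fell from -3.07 and -3.67 to -5.06 and -4.52 (-1.42). In both, C-C array 1 was the highest. Oxytocin (Oxt), a peptide of hypothalamic neurons, read -2.37 and -3.40 in C-C and -4.06 and -4.10 in C-DE, a change of -1.19 (-1.73 to -0.66) that was -0.68 without C-C array 1. On the enriched arrays Oxt read between -4.22 and -3.88, so that both C-C arrays stood above all others. Nr1i3, the nuclear receptor CAR that governs drug-metabolizing enzymes and a gene of the study's RT-PCR, fell from -0.77 and -1.08 to -2.02 and -1.78 (-0.97). The predicted genes Gm6034 (-1.28) and Gm10081 (-1.21), the glycosyltransferase Gcnt7 (-1.17) and the transporter-like gene Svopl (-1.002) completed the 15 largest falls. Svopl did not keep its direction under a looser background flag, which lets another of its probes in.

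Only 5 genes with a symbol rose at least 1.5-fold in each pairing, all of them dim. Tmem52 read -5.78 and -5.69 in C-C and -4.92 and -4.68 in C-DE (0.93). Then followed 1600016N20Rik (0.85), 4930528A17Rik (0.81), Cbx7 (0.71) and the zinc finger gene Zfp600 (0.67), with levels between -5.79 and -3.80 on the 4 arrays. Cbx7 is a subunit of a Polycomb repressor. Its duplicates were nearly equal, at -4.52 and -4.51 in C-C and -3.80 and -3.80 in C-DE, but its other probe, dimmer still, gave 0.13 (-0.29 to 0.54).

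Probes of a gene did not always run together, also among genes that the study measured by RT-PCR. Of the 3 probes of Chmp4b, a component of the membrane-cutting ESCRT-III complex, the one at chr2:154519942-154520001 (mm9) rose from 2.48 and 2.65 in C-C to 3.32 and 3.40 in C-DE, a change of 0.80 (0.68 to 0.92). The brighter probes, at chr2:154520353-154520412 and chr2:154520437-154520496, changed by 0.18 and 0.08. Sdad1, a gene of ribosome assembly, had a probe at chr5:92727219-92727278 that fell from 0.21 and -0.42 to -1.32 and -1.17 (-1.14), while its brighter probe changed by -0.11. For Fam13c the values were 0.54 at the brighter probe, whose 60 bases are placed between 69999204 and 70005402 of chromosome 10, and 0.05 at the other. The 8 probes of Gapdh, the reference gene of the RT-PCR, lay between -0.11 and 0.10.

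A set of 7 probes of predicted genes was higher in C-DE and had related sequences. They share at least 18 bases in a row, on either strand, with a probe placed at the start of chromosome 9, or belong to the same predicted genes. Arrays of repeats at that end of mouse chromosome 9 are related to the major (gamma) satellite, the repeat of pericentric heterochromatin. The set was chosen after its values were seen. The sequences are shown because they tell which probes are near copies, with the stretch that the probes of a subset share in capitals. On mm9 the first 3 lie on the plus strand at chr9:3004200-3004259, chr9:3024224-3024283 and chr9:3038257-3038316.

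Gm10720 probe 2: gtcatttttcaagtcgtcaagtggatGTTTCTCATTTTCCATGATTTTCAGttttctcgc
Gm10718: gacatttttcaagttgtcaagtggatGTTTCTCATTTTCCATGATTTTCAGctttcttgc
Gm10715: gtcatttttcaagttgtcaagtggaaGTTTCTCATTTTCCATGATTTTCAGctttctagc

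These 3 share a run of 25 bases. The next 3 share 13 bases and lie at chr2:98507014-98507072 (minus strand), chr9:3003722-3003781 and chr9:3030720-3030779 (plus strand).

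Gm10800 probe 1: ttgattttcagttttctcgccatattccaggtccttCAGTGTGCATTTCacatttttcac
Gm10720 probe 1: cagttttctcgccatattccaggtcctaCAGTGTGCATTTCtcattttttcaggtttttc
Gm10716: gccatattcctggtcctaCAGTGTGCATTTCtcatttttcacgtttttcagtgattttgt

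The remaining probe lies at chr2:98507096-98507154 (minus strand) and is printed without capitals.

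Gm10800 probe 2: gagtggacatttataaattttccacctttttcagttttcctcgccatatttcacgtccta

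All 7 probes could be compared, and in each the C-DE arrays lay above the C-C arrays, against 18.7% of all genes. Gm10720 probe 2 read -1.46 and -0.72 in C-C and 0.22 and 0.10 in C-DE, a change of 1.25 (0.82 to 1.69). The other probes with the 25-base run gave 1.05 (Gm10718) and 1.17 (Gm10715), and Gm10800 probe 2, at -2.22 and -1.53 against -0.65 and -0.54, gave 1.28. The probes with the 13-base run were brighter and changed less. Gm10800 probe 1 stood at 0.02 and 0.22 in C-C and 0.80 and 0.76 in C-DE (0.66), Gm10716 gave 0.61 and Gm10720 probe 1 0.54. Near-identical probes share their targets, so the 7 are not independent measurements. In EE-DE/EE-C every one of the 7 was lower in each pairing, against 19.9% of all genes measured there. Gm10720 probe 2 changed by -1.09, Gm10718 by -1.22, Gm10715 by -1.16, Gm10800 probe 2 by -1.26, Gm10800 probe 1 by -0.39, Gm10716 by -0.39 and Gm10720 probe 1 by -0.27. The difference between the comparisons was not tested.

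**Figure D4:**
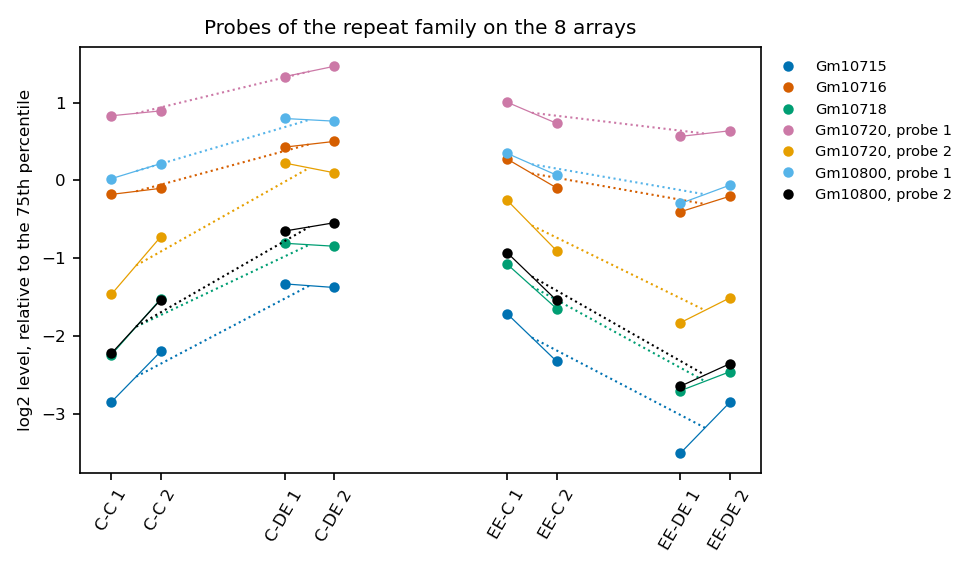
Log2 level (relative to the array's 75th percentile) of the 7 repeat probes on each of the 8 arrays, with duplicates joined by solid lines and the means of the clean air and diesel exhaust pools by dotted lines. The C-DE arrays lie above the C-C arrays for each probe and the EE-DE arrays below the EE-C arrays.

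Large intergenic noncoding RNAs (lincRNAs) made up 3328 of the genes compared, and 27 rose (0.811%) and 60 fell (1.80%), against 0.500% and 0.980% of all genes and 1.89% past 1.5-fold in either direction among genes with a mean level between -4 and -2. Most of these probes were dim, with a median level of -2.87. Among lincRNAs with several probes, the largest rise by the brightest probe was on chromosome 12, chr12:72103832-72116875 (mm9), reverse strand, for which the array has 10 probes, all of them compared. The 4 probes from base 72107634 to 72108296 were above 0 and the 6 from 72108858 to 72109617 were below 0 in each pairing. The sequences of the first 2 and of the last probe, at chr12:72107634-72107693, chr12:72107756-72107815 and chr12:72109558-72109617, are given as the ends of that pattern.

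lincRNA chr12, first probe: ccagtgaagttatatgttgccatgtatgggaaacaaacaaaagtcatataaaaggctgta
lincRNA chr12, second probe: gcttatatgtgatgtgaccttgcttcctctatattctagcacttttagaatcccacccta
lincRNA chr12, last probe: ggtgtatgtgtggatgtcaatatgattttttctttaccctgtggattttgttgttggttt

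The first probe read -3.04 and -2.94 in C-C and -1.54 and -1.21 in C-DE, a change of 1.62 (1.40 to 1.84). The second read -1.85 and -1.67 in C-C and -0.78 and -0.40 in C-DE, a change of 1.17 (0.88 to 1.46). The next 2 gave 0.78 and 0.52, so that the change became smaller with rising chromosome coordinates. On the reverse strand, rising coordinates run against the direction of the transcript, and the first probe is the one nearest its end. The last probe read -2.93 and -2.80 in C-C and -3.28 and -3.40 in C-DE, a change of -0.48 (-0.61 to -0.35), and the 5 before it lay between -0.40 and -0.09. The enriched arrays showed no such order: their duplicates were far apart at the first probe, at -2.75 and -1.64 in EE-C and -2.86 and -1.68 in EE-DE, and the change there was -0.08 (-1.22 to 1.07).

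**Figure D5:**
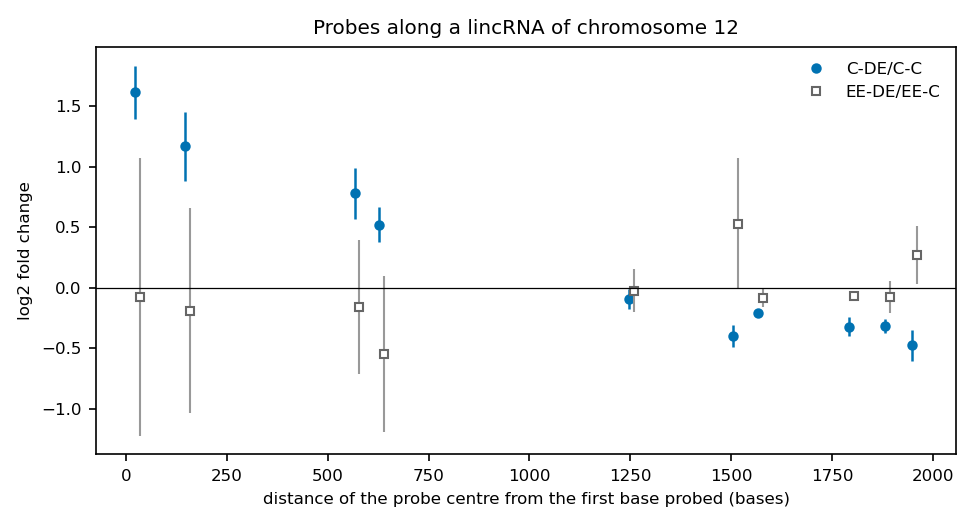
Log2 fold change (vertical axis) of 10 probes along a lincRNA of chromosome 12, by the distance of the probe's centre from the first base probed (horizontal axis), with lines over the 4 pairings. In C-DE/C-C (blue) 4 neighbouring probes lie above 0, up to 1.62, and the next 6 lie below 0, down to -0.48, while the first 2 enriched values (grey) have long lines across 0.

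The lincRNA that held the largest rise of any of these probes, on chromosome 14, chr14:79724027-79729152 (mm9), reverse strand, also had probes that did not run together. The probe at chr14:79727042-79727101 stood at -5.08 and -4.84 in C-C and -2.01 and -3.54 in C-DE, a change of 2.19 (1.30 to 3.07), and the one at chr14:79726960-79727019 changed by 1.02. Its brightest probe, at -0.81 and -0.95 against -0.92 and -0.96, changed by -0.06. The brightest lincRNA past 1.5-fold was chr2:108456668-108532418, which stood at 5.18 and 5.02 in C-C and 4.35 and 4.41 in C-DE, a change of -0.72 (-0.83 to -0.61), and its EE-DE/EE-C value was -0.47 (-0.72 to -0.22). Its other passing probe, at a level of -3.10, gave -0.26.

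Some probes were measured in a single pool, well above background on both of its arrays and on neither array of the other, and have only a bound. There were 214 such probes in C-C and 183 in C-DE, with bounds of at least 1.5-fold for 98 and 68. The bound is the bright pool's mean over the mean of the lowest signal well above background on each array of the other pool, or of the dim probe's own signal where that was higher. The largest was a probe of the tau kinase Ttbk1 at chr17:46583257-46583316 (mm9), which stood at -1.23 and -1.35 in C-C and was not well above background in C-DE, at least 27.6-fold lower. It read between -6.79 and -6.00 on the 4 enriched arrays, and another Ttbk1 probe read 1.96 and 1.96 in C-C and 1.98 and 1.91 in C-DE. The C-C arrays were thus alone in this signal. Outside the RefSeq table's symbols, larger bounds rest mainly on a single array: at least 16.1-fold and 4.27-fold for transcript names that read -5.62 and 1.24 and -5.73 and -2.47 in C-C, and 6.31-fold for a lincRNA that read -1.50 and -5.46 in C-DE. Among genes with such a symbol, the next bounds in C-C were at least 3.91-fold for Gm15506, 3.06-fold for a second probe of Krt8, 2.72-fold for Clec5a, a receptor of myeloid cells, and 2.67-fold for Serpinb11. In C-DE they were at least 6.18-fold for Zbbx, 3.04-fold for the casein gene Csn1s2b, 2.27-fold for Cybb, a subunit of the phagocyte oxidase, 2.16-fold for Pyhin1 and 2.07-fold for the carboxylesterase Ces2b. For Zbbx the C-DE duplicates read -4.77 and -2.24, Gm15506 read -5.80 and -2.50 in C-C and Ces2b read -4.31 and -5.86 in C-DE, so that these bounds too rest largely on a single array.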

How the data were processed

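RNA of the olfactory bulbs was pooled by group, and each of the 4 pools was divided over 2 arrays of 1 slide. Groups were read from the sample titles. The 4 C-C and C-DE arrays lay in one column of the slide. The intensity of each spot was deposited by the authors as the processed signal of Agilent Feature Extraction 10.7.3.1, which removed spatial and multiplicative trends without subtracting a local background, per the file headers, with no scaling across arrays. A series table of log2 values was also deposited by the authors. Its values followed the log2 signal minus the 75th percentile, centred on each probe's median over the 8 arrays, within 0.02 for 99.941% of 30689 probes, and served as an alternative.

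Here the level is the log2 ratio of the processed signal to the 75th percentile over an array's noncontrol spots (644.0 to 706.0 intensity units on the 4 arrays). Probes were kept when noncontrol, well above background (68.1% to 70.6% of spots) and free of outlier flags on all 4 arrays. Of the enriched arrays, EE-DE array 1 had 56.7% of spots well above background, and the others had 68% to 70.2%. Spots of a probe were averaged, and each gene name was given by its brightest probe: 36016 probes, 24581 names, of which 16948 are in a RefSeq table. Names and positions are those of the array's annotation on mm9. Arrays of a pool are 1 replicate, so values are means with the range over 4 pairings, and no test was made.

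The members, the 31 gene lists and the rules were chosen with earlier results of these data known. Named were the 15 largest rises and falls with a symbol past 1.5-fold in all pairings, the genes measured by RT-PCR, the 2 largest changes, the 2 brightest and all members past 1.5-fold of each list, the 5 largest bounds each way among symbols of that table, and Gapdh. The repeat probes, the lincRNAs and some further list members were chosen after their values were seen. Motifs were searched in 250 bases upstream of RefSeq starts on GRCm38.p6. Alternatives were normexp background correction (offset 50, limma 3.58.1 in R 4.3.3), quantile normalization, the median of passing probes as the scale, the series table, linear means, other filters on dim probes or outliers, other thresholds, all probes of a gene, and leaving out each array. Python 3.11.15 with numpy 2.4.6, pandas 2.3.3 and matplotlib 3.10.9 was used.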

Additional observations from a re-analysis of the deposited data

Results flagged for a closer look

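Some values ran one way in every C-DE/C-C pairing of arrays and the other way in every EE-DE/EE-C pairing. Each group is 1 pool, so the difference between the comparisons was not tested. The median of the olfactory sensory neuron list was -0.51 in standard cages and 0.22 with enrichment, the order in which values are given here. Its members Umodl1 (-1.31 against 1.07), Cnga4 (-0.95 against 0.72), Ano2 (-0.90 against 0.72), Gm581, the name of Gfy in the files (-0.82 against 0.84), Ebf2 (-0.71 against 0.59) and Kirrel2 (-0.62 against 0.73) did the same. Mslnl of the supporting cell list gave -1.12 against 0.97. The median of the mitral and tufted cell list was 0.039 against -0.001, a distance smaller than the spread between duplicates of most genes.

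Outside these lists, the glycosyltransferase Gcnt7 gave -1.17 against 1.04, the odorant receptor Olfr541 -0.94 against 0.82 and oxytocin (Oxt) -1.19 against 0.25. Bpifb9b of the nasal glands gave 2.50 against -3.69, of which the first rests largely on a single array. Of the 4 enriched arrays, Olfr541 was well above background on 2, and Gcnt7 and Bpifb9b on 3, so that their enriched values rest partly on signals near background.

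The 7 repeat probes differed in the opposite sense, above 0 in standard cages and below 0 with enrichment. Gm10800 gave 1.28 against -1.26 at the probe from base 98507096 and 0.66 against -0.39 at the probe from 98507014. Gm10720 gave 0.54 against -0.27 at the probe from 3003722 and 1.25 against -1.09 at the probe from 3004200. Gm10716 gave 0.61 against -0.39, Gm10718 1.05 against -1.22 and Gm10715 1.17 against -1.16.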

How the results depend on the processing

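The counts of genes past 1.5-fold depended on how probes were corrected and filtered. Against 123 higher and 241 lower genes, normexp background correction gave 17 and 53, Agilent's flag of a positive, significant signal in place of the stricter one 564 and 875, the joint demand for an accession and a signal above background on all 8 arrays 26 and 81, and the brighter 75% of probes 27 and 85. A 2-fold threshold gave 17 and 48, and the demand for 1.5-fold in all 4 pairings 13 and 47. Every probe in place of 1 per gene gave 193 and 336, out of 36016 probes in place of 24581 genes. Leaving out each array in turn gave 168 to 262 higher and 208 to 460 lower genes, the most lower without C-C array 2 and the most higher without C-DE array 1. The olfactory sensory neuron median, -0.51, was -0.19 with normexp and lay between -0.64 and -0.27 without single arrays. The supporting cell median, -1.16, lay between -1.61 and -0.73, and the neutrophil and marrow median, -0.54, was -0.22 with normexp and between -0.68 and -0.26 without single arrays. Among values past 1.5-fold, reversed without a single array were the nasal gland median (-0.573 to 0.025), BC048679 (-2.40 to 0.29), Bpifa6 (-2.49 to 0.19), Bpifb4 (-2.14 to 0.50), Bglap2 (-1.34 to 0.00) and Retnlg (-1.35 to 0.10). Several list medians close to 0 also changed sign without a single array, among them those of odorant receptors (0.06 without C-C array 1), microglia (0.00), meninges (0.04), oligodendrocytes (0.01 without C-DE array 2) and clock genes in phase with Dbp (-0.02). Svopl was 0.46 with Agilent's looser flag, which lets another probe in. Of the 65 named genes past 1.5-fold, 59 kept their direction in all of the 14 settings that gave a value, and 17 stayed past 1.5-fold. The causes were not tested. No paired analysis was possible because the 2 arrays of a group are technical duplicates of 1 pool and no test is made. Single pools limit every value to these pools.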
